A study of Mus musculus with 4 samples.

Results

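Brush border genes encode the cadherins, motors and actin-binding proteins of the microvilli that cover the apical face of differentiated intestinal epithelium. The 10 genes described here (Cdhr2, Cdhr5, Ush1c, Myo7b, Vil1, Espn, Pls1, Eps8, Myo1a and Ezr) were chosen by name from the 14979 genes of a count table, and all 10 are listed in it. Of these, 9 had enough tags to be tested, and Myo1a did not. They were measured in colon tumours of mice given azoxymethane, a carcinogen, and dextran sulfate sodium, which inflames the colon (AOM/DSS). In the MAdCAM1 group 2 tumour-bearing mice received an antibody against MAdCAM-1, a venule adhesion molecule to which gut-homing lymphocytes bind. In the IgG group 2 mice with the same AOM/DSS tumours received a control IgG antibody. Each mouse gave 1 library, named here MAdCAM1 1, MAdCAM1 2, IgG 1 and IgG 2, and the labels do not give strain or age. RNA was read by CAGE, cap analysis of gene expression, in which a tag is a short read that begins at the cap of a transcript. The comparison asks how the tumours of antibody-treated mice differ from those of IgG-treated mice.

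Microvilli are finger-like membrane folds around a core of bundled actin filaments. Villin, espin and plastin 1 cross-link the core, EPS8 sits at its tip, and myosin 1A and ezrin tie the core to the membrane. Neighbouring microvilli are linked tip to tip by the cadherins CDHR2 and CDHR5, whose tails are held by the scaffold harmonin (Ush1c) and the motor myosin 7B (Myo7b). This intermicrovillar adhesion complex packs microvilli into the ordered brush border of enterocytes and colonocytes, and several of its proteins have counterparts in the hair bundles of the inner ear.

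CAGE reads the start of transcripts, so the promoters of the members are shown first. The stretches run from 100 bases upstream to 20 bases downstream of the start of the canonical GENCODE M39 transcript (GRCm39), 5′ to 3′ along the gene's strand, with each CG pair in capitals. Cdhr2 and Cdhr5 are shown because their levels differed most between the groups, Vil1 as the gene of the microvillus core, and Ezr as the broadly used member whose levels overlapped between the groups. The Cdhr2 stretch lies at chr13:54849171-54849290 on the plus strand and that of Cdhr5 at chr7:140856685-140856804 on the minus strand. The Vil1 stretch lies at chr1:74448435-74448554 on the plus strand and that of Ezr at chr17:7050164-7050283 on the minus strand.
Cdhr2: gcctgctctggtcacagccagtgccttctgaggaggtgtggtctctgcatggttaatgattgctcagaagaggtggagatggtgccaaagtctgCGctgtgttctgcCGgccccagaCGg
Cdhr5: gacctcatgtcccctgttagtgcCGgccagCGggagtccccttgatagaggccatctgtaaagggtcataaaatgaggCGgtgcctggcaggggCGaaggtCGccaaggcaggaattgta
Vil1: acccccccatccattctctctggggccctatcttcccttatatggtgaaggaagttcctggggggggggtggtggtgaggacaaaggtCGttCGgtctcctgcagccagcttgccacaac
Ezr: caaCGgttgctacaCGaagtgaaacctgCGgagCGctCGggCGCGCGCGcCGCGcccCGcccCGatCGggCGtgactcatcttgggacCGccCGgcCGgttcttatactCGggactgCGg

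The CG pairs set Ezr apart from the other members. Over 300 bases (250 upstream, 50 downstream), the Ezr promoter held 39 CG pairs, and 96.4% of the promoters of tested genes held as many or fewer. The median over tested genes was 16. Cdhr2 held 4, Cdhr5 7, Ush1c 7, Myo7b 3, Vil1 5, Eps8 2 and Myo1a 1, while Espn held 13 and Pls1 15. The same windows were searched on both strands for the letters of a few binding motifs. These were CAAAGTCCA of HNF4 factors, the looser CAAAGNNCA that contains it, TTTATNG of CDX factors, TATAAA, and the CArG box bound by SRF. Vil1 held a CArG box, CCTTATATGG, from 65 to 56 bases upstream of its start, and 1.42% of 14287 promoters held that motif. The letters of the other motifs were found in 0 of 10 member windows, against 0.455% of promoters for CAAAGTCCA, 5.64% for CAAAGNNCA, 8.78% for TTTATNG and 9.65% for TATAAA. Forms of the motifs with other letters were not searched. The deposited counts are summed per gene and do not give the positions of the tags, so the start used in these tumours may differ from the annotated start.

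No brush border gene passed the main test. The quasi-likelihood test of edgeR, with Benjamini-Hochberg adjustment over all 14331 tested genes and a threshold of 0.05, called 0 of the 9 members and 0 genes in all (0%). At an unadjusted p under 0.05 the same test had 3 members higher (Cdhr2, Cdhr5 and Vil1) and 0 lower, against 5.09% of all genes higher and 1.82% lower. For 6 of the 9 members the values of the groups did not overlap and MAdCAM1 was the higher group, against 19.7% of all tested genes. For 0 members MAdCAM1 was the lower group without overlap, against 18.7% of all genes. The median log2 fold change of the 9, MAdCAM1 over IgG, was 0.47, against −0.0012 for all tested genes. The members, and the lists of other genes below, were chosen with earlier results of these data known. Their counts and medians are therefore not independent evidence. DESeq2 called the same 3 members higher, against 1.53% of all genes, edgeR's exact test called Cdhr2 and Cdhr5, against 1.06%, and limma-voom called 0 members and 0 genes in all (0%). On simulated data with known changes, DESeq2 and the exact test made the largest shares of false calls, above their threshold. Neither DESeq2 nor the exact test called a member lower, against 0.14% and 0.0628% of all genes in that order. All 4 tools used the same counts. Because these are whole tumours, more cells with a brush border and more RNA per such cell cannot be told apart. Levels below are CPM, counts of a gene relative to the library total, scaled by TMM, a method that evens out the bulk of genes between libraries. A transcript yields its tags from its 5′ end whatever its length, so CPM needs no correction for length.

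**Figure D1:**
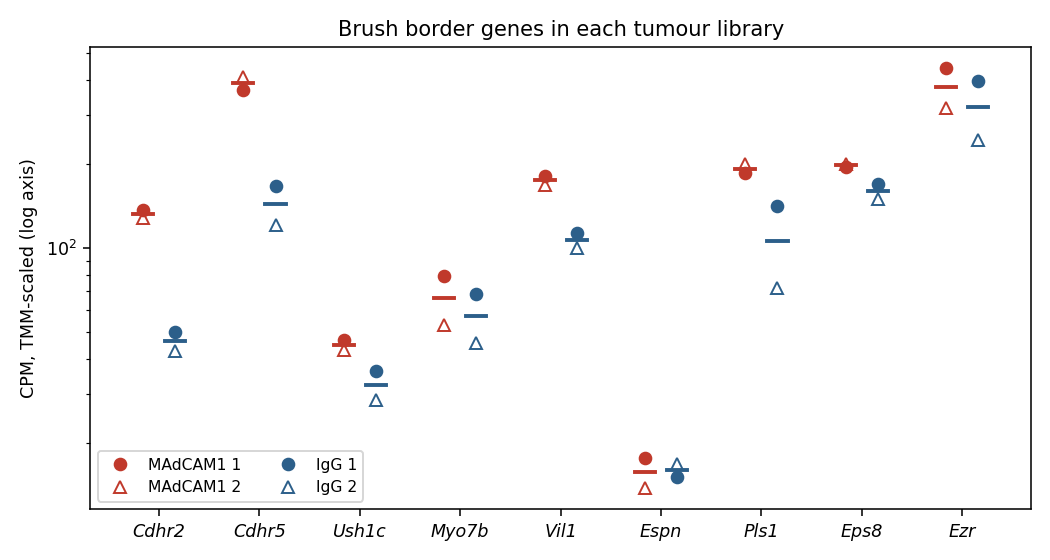
CPM (TMM-scaled, log axis) of the 9 tested genes in each of the 4 libraries, with MAdCAM1 in red and IgG in blue, circles for mouse 1 and triangles for mouse 2 of each group, and a bar at each group mean. Cdhr2 at 137 and 128 CPM in MAdCAM1 stands clear of 49.9 and 42.9 CPM in IgG, while Myo7b, Espn and Ezr overlap.

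The cadherins CDHR2 and CDHR5, which join microvilli at their tips, had the highest fold changes of the set. Cdhr2 (ENSMUSG00000034918, chromosome 13, 54849271 to 54884475) stood at 137 and 128 CPM in the MAdCAM1 libraries, against 49.9 and 42.9 CPM in the IgG libraries. The groups lay far apart and each pair of mice lay close together, with means of 132 ± 6.32 CPM in MAdCAM1 and 46.4 ± 4.99 CPM in IgG (SD, n = 2 each). The log2 fold change was 1.51 (SE 0.15, 2.85-fold), and its p was rank 5 of 14331 genes, with a quasi-likelihood adjusted p of 0.640. The exact test of edgeR gave an adjusted p of 2.1e-05 and DESeq2 2.6e-09. Cdhr2 was already known from earlier results of these data to rank high when the set was chosen, so its rank is not independent evidence.

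Cdhr5 (ENSMUSG00000025497, chromosome 7, 140848996 to 140856704), the partner across the intermicrovillar gap and a mucin-like protein, stood at 370.1 and 413 CPM in MAdCAM1 and at 168 and 121 CPM in IgG. Both MAdCAM1 libraries were above both IgG libraries, and the lower MAdCAM1 value was still over the higher IgG value by more than the distance within either group. The log2 fold change was 1.44 (SE 0.22, 2.71-fold), with rank 45 by p, an edgeR quasi-likelihood adjusted p of 0.640, an exact test adjusted p of 0.0038 and a DESeq2 adjusted p of 1.7e-05.

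The cytoplasmic side of the same complex showed smaller differences. Ush1c (chromosome 7, 45843621 to 45887987), the harmonin scaffold that binds the cadherin tails, stood at 46.7 and 43.0 CPM in MAdCAM1 and at 36.1 and 28.5 CPM in IgG. The groups did not overlap, and the log2 fold change of 0.47 (SE 0.19) had an edgeR adjusted p of 0.731. Myo7b (chromosome 18, 32092287 to 32170014), the motor that carries the complex towards microvillus tips, stood at 79.6 and 52.8 CPM in MAdCAM1 and at 68.4 and 45.7 CPM in IgG. Its groups overlapped, with the lower MAdCAM1 library below IgG 1 and a log2 fold change of 0.21 (SE 0.31, edgeR adjusted p = 0.926). Its direction turned in 3 of 15 alternatives, among them the fits without MAdCAM1 1 (−0.11) and without IgG 2 (−0.055).

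Of the further proteins of the complex, Calml4, a calmodulin-like light chain of myosin 7B, and Anks4b, an ankyrin-repeat scaffold, were tested. Calml4 stood at 173 and 131 CPM in MAdCAM1 and 90.3 and 86.5 CPM in IgG (log2 fold change 0.78, SE 0.19, edgeR adjusted p = 0.671). Anks4b stood at 18.6 and 21.2 CPM in MAdCAM1 and 14.7 and 14.4 CPM in IgG (log2 fold change 0.45, SE 0.19, edgeR adjusted p = 0.731). Both were higher in both MAdCAM1 libraries, so that 5 of the 6 tested genes of the complex, all but Myo7b, were higher without overlap, against 19.7% of all tested genes.

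Among the actin bundlers of the core, villin and plastin 1 were higher in MAdCAM1 and espin overlapped between the groups. Vil1 (ENSMUSG00000026175, chromosome 1, 74448535 to 74475933), which bundles and at high calcium severs actin filaments, stood at 182 and 168 CPM in MAdCAM1, against 113 and 99.9 CPM in IgG. The groups stood well apart, with means of 175 ± 9.54 CPM in MAdCAM1 and 107 ± 9.57 CPM in IgG (SD, n = 2 each). The log2 fold change of 0.71 (SE 0.15, 1.64-fold) was rank 147 by p, with an adjusted p of 0.665 by edgeR's quasi-likelihood test, 0.383 by its exact test and 0.0225 by DESeq2.

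Pls1 (chromosome 9, 95634544 to 95727364), the intestinal plastin or fimbrin, stood at 185 and 200.1 CPM in MAdCAM1 and at 141 and 71.7 CPM in IgG. The MAdCAM1 mice were close together and the IgG mice differed by nearly as much as the groups did, with means of 193 ± 10.4 CPM in MAdCAM1 and 106 ± 49.2 CPM in IgG (SD, n = 2 each). The log2 fold change was 0.86 (SE 0.36, edgeR adjusted p = 0.742), 0.44 without IgG 2 and 1.41 without IgG 1.

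Espn (chromosome 4, 152204788 to 152236887), a bundler that lengthens microvilli, had the lowest level of the tested members. It stood at 17.6 and 13.7 CPM in MAdCAM1 and at 15.0 and 16.8 CPM in IgG. The MAdCAM1 values lay on either side of the IgG values, with a log2 fold change of −0.022 (SE 0.22, edgeR adjusted p = 0.992) whose sign turned without IgG 2 (0.054) and without MAdCAM1 2 (0.15).

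Eps8 (chromosome 6, 137454242 to 137648519), which caps actin at microvillus tips, stood at 195 and 201 CPM in MAdCAM1 and at 169.9 and 150.04 CPM in IgG. The groups did not overlap, but the log2 fold change was 0.31 (SE 0.15, edgeR adjusted p = 0.760). Its paralog Eps8l3 was also higher in both MAdCAM1 libraries, at 119 and 109 CPM against 63.1 and 56.2 CPM in IgG. Its log2 fold change of 0.93 (SE 0.14) had an adjusted p of 0.640 by edgeR's quasi-likelihood test, 0.0407 by its exact test and 0.0012 by DESeq2. The paralog Eps8l2 overlapped between the groups, at 83.1 and 89.1 CPM in MAdCAM1 and 84.6 and 68.3 CPM in IgG.

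By mean level over the 4 libraries, the linkers of core and membrane were the members with the highest and the lowest counts. Ezr (chromosome 17, 7005440 to 7050611), which ties actin to membrane proteins in microvilli and in many other cell surfaces, stood at 442 and 318 CPM in MAdCAM1 and at 399 and 245 CPM in IgG. The spread within each group exceeded the difference between them, and the log2 fold change was 0.24 (SE 0.32, edgeR adjusted p = 0.915). Without IgG 2 it was −0.079 and without MAdCAM1 1 −0.022. The other proteins of its family also overlapped between the groups. Radixin (Rdx) stood at 19.7 and 26.5 CPM in MAdCAM1 and 24.9 and 15.0 CPM in IgG. Moesin (Msn), abundant in leukocytes, stood at 27.4 and 83.9 CPM in MAdCAM1 and 56.9 and 55.5 CPM in IgG.

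Myo1a (chromosome 10, 127541039 to 127556809), the motor that bridges core and membrane, was close to absent from the deposited counts. It had 2 and 2 tags in the MAdCAM1 libraries and 0 and 0 in the IgG libraries. Counts of 0 allow up to 3 tags, 0.171 CPM in IgG 1 and 0.186 CPM in IgG 2, and this limit covers counting error only. The MAdCAM1 counts lie under it too, so a difference was not detectable with these counts. Weak, irreproducible and wide clusters of tags were dropped before the counts were deposited. Whether the low counts of Myo1a reflect low expression was not tested. Another class I myosin of the brush border, Myo1d, stood at 91.5 and 103 CPM in MAdCAM1 and 74.6 and 44.3 CPM in IgG (log2 fold change 0.71, SE 0.29, edgeR adjusted p = 0.733).

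Most general epithelial markers were also higher in MAdCAM1, although edgeR's quasi-likelihood test called 0 of them. DESeq2 called 2 of 16 general epithelial, 7 of 16 colonocyte and 5 of 9 goblet cell markers higher, against 1.53% of all genes. The exact test called 0, 5 and 4 in that order, against 1.06% of all genes. For the counts that follow, the shares over all tested genes were 19.7% higher and 18.7% lower without overlap. Of 16 tested epithelial markers such as Epcam, 10 were higher without overlap in MAdCAM1, 6 overlapped and 0 were lower, and the median was 0.37 on the log2 scale. Their summed level was 12849 and 11229 CPM in MAdCAM1, against 8676 and 7670 CPM in IgG, and no tested marker was at 0. Colonocyte markers such as Krt20 had 14 of 16 higher in both, 0 lower and a median of 2.06, with sums of 3750 and 3970 CPM in MAdCAM1 and 1785 and 966 CPM in IgG. Of 9 goblet cell markers such as Muc2, 8 were higher in both and 0 lower, with a median of 2.27 and sums of 10324 and 7240 CPM in MAdCAM1 and 2694 and 1164 CPM in IgG. Of 7 stem cell and Wnt markers, Nkd1, Notum and Ascl2 were lower in both MAdCAM1 libraries and 0 were higher, with a median of −0.53. The other 4 overlapped between the groups: Lgr5 (0.19), Smoc2 (−0.010), Sox9 (−0.39) and Axin2 (−0.70). The sums of these 7 were 1078 and 785.5 CPM in MAdCAM1 and 1246 and 2124 CPM in IgG. Of 7 proliferation markers 2 were higher without overlap and 0 lower (median 0.075).

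Among non-epithelial cells, 3 of 5 plasma cell markers (Mzb1, Jchain and Derl3) were higher without overlap in MAdCAM1 and 0 lower, with a median of 1.78. The shares over all tested genes were 19.7% higher and 18.7% lower. Jchain, the joining chain of secreted antibodies, stood at 42.7 and 450 CPM in MAdCAM1 and 8.14 and 35.4 CPM in IgG. The sums of the list overlapped, at 563 and 1054 CPM in MAdCAM1 and 634 and 587 CPM in IgG. These sums include Sdc1 and Xbp1, which both overlapped. Sdc1 stood at 301 and 245 CPM in MAdCAM1 and 381 and 285 CPM in IgG. Xbp1 stood at 217 and 340 CPM in MAdCAM1 and 243 and 264 CPM in IgG. Of 9 fibroblast markers 8 overlapped, 0 were higher and Vim was lower in both, with a median of 0.21. Vim stood at 151 and 186 CPM in MAdCAM1 and 212 and 309 CPM in IgG (log2 fold change −0.63). The other 8 had log2 fold changes above 0, from 0.12 (Fn1) to 0.68 (Dcn). The sums of the fibroblast list were 777 and 2119 CPM in MAdCAM1 and 896 and 1754 CPM in IgG. The summed level of 8 smooth muscle markers was 153 and 2196 CPM in MAdCAM1 and 1971 and 164 CPM in IgG, and that of 12 leukocyte markers 325 and 1320 CPM in MAdCAM1 and 482 and 822 CPM in IgG. In both lists, and among 5 endothelial and 5 tuft cell markers, 0 lay apart between the groups. The part of these cell types in the differences of brush border genes was not tested.

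Scaling the libraries to the tested epithelial markers instead of by TMM left the cadherins farther above 0 than the other members. With that scaling the median over all genes was −0.40 on the log2 scale, and 5.81% of all genes were then higher in both MAdCAM1 libraries and 52.5% lower in both. Cdhr2 had a log2 fold change of 1.12 (SE 0.25) and Cdhr5 of 1.07 (SE 0.29), both with an edgeR adjusted p of 0.369. Pls1 stood at 0.51 (SE 0.31) and Vil1 at 0.32 (SE 0.26). The other members lay near or below 0, with Ush1c at 0.087, Eps8 at −0.082, Ezr at −0.14, Myo7b at −0.17 and Espn at −0.44, and the median over the 9 was 0.087. In this scaling 5 of 9 members stayed higher in both MAdCAM1 libraries (Cdhr2, Cdhr5, Ush1c, Vil1 and Pls1) and Espn was lower in both. Colonocyte markers had 13 of 16 higher in both, 0 lower and a median of 1.66 in this scaling, above the values of both cadherins.

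**Figure D2:**
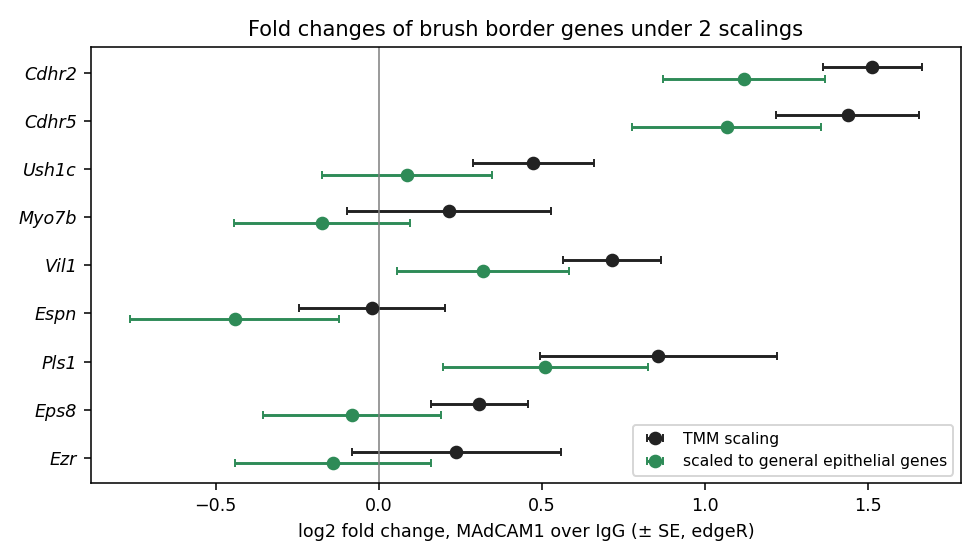
Log2 fold change, MAdCAM1 over IgG, of the 9 tested genes (points, with SE bars) under TMM scaling in black and with libraries scaled to general epithelial genes in green. Cdhr2 (1.51 and 1.12) and Cdhr5 (1.44 and 1.07) lie to the right of the other 7 genes under both, and Myo7b, Eps8 and Ezr change sign.

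The same counts can be read within a library, relative to the summed tags of the epithelial markers and without TMM factors. For each 1000 tags of epithelial markers, Cdhr2 gave 10.6 and 11.4 tags in MAdCAM1 and 5.75 and 5.59 in IgG, and Cdhr5 28.8 and 36.7 in MAdCAM1 and 19.3 and 15.8 in IgG. Vil1 differed little on this measure, with 14.1 and 15.0 in MAdCAM1 and 13.1 and 13.0 in IgG. Eps8 was on the other side, with 15.2 and 17.9 in MAdCAM1 and 19.6 and 19.6 in IgG, and so was Espn, with 1.37 and 1.22 in MAdCAM1 and 1.73 and 2.19 in IgG. The other 4 overlapped between the groups, among them both Ush1c, with 3.64 and 3.83 in MAdCAM1 and 4.16 and 3.72 in IgG, and Pls1, with 14.4 and 17.8 in MAdCAM1 and 16.3 and 9.35 in IgG. On this measure 3 members were thus higher without overlap (Cdhr2, Cdhr5 and Vil1), fewer than under the scaling to the geometric mean of the same markers. The summed markers were themselves higher in MAdCAM1, at 12849 and 11229 CPM against 8676 and 7670 CPM in IgG. A gene at equal CPM in all libraries therefore lies lower on this measure in MAdCAM1. The shares of all genes higher or lower on it were not computed.

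Relative to villin, the cadherins lay on the opposite side to most other members. Cdhr2 had 0.752 and 0.760 tags for each Vil1 tag in MAdCAM1, against 0.440 and 0.429 in IgG, and Cdhr5 had 2.04 and 2.45 in MAdCAM1, against 1.48 and 1.22 in IgG. Both cadherins were higher in both MAdCAM1 libraries. Ush1c, Myo7b, Espn, Eps8 and Ezr were lower in both MAdCAM1 libraries on the same measure. Ezr, for example, had 2.43 and 1.89 tags for each Vil1 tag in MAdCAM1 and 3.52 and 2.46 in IgG, and Ush1c 0.257 and 0.255 in MAdCAM1 and 0.318 and 0.285 in IgG. Pls1 overlapped, at 1.02 and 1.19 in MAdCAM1 and 1.24 and 0.717 in IgG. All 8 ratios share the Vil1 count of their library and are not independent of each other. Vil1 was itself higher in MAdCAM1 (log2 fold change 0.71, against a median of −0.0012 for all tested genes). A gene at equal CPM in all libraries therefore lies lower per Vil1 tag in MAdCAM1. The share of all genes that lay lower on this measure was not computed. With 2 mice against 2, the exact two-sided permutation test cannot go below p = 0.333, which is the value for each ratio without overlap.

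**Figure D3:**
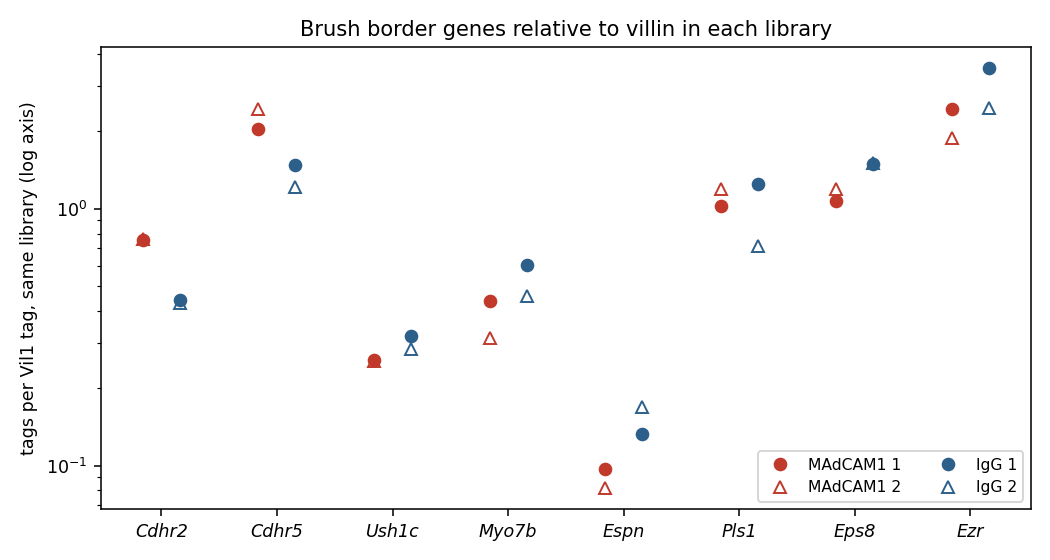
Tags of each gene per Vil1 tag in the same library (log axis), MAdCAM1 in red and IgG in blue, circles for mouse 1 and triangles for mouse 2. Cdhr2 and Cdhr5 lie higher in both MAdCAM1 libraries, Pls1 overlaps, and the other 5 genes lie lower in both MAdCAM1 libraries.

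Other proteins of the microvillus lay on the higher side in MAdCAM1 or overlapped between the groups. Of 20 tested genes of the core, tip and membrane linkage, 10 were higher without overlap in MAdCAM1 and 0 lower, at a median of 0.31 on the log2 scale. The shares over all tested genes were 19.7% higher and 18.7% lower. Baiap2l1, which helps EPS8 to lengthen microvilli, stood at 138 and 115 CPM in MAdCAM1 and 79.4 and 52.9 CPM in IgG (log2 fold change 0.94, edgeR adjusted p = 0.691). Misp, which bundles actin in the rootlets, stood at 249 and 237 CPM in MAdCAM1 and 181 and 133 CPM in IgG (0.63, adjusted p = 0.691). Myo6, a motor at the base of microvilli, stood at 138 and 135 CPM in MAdCAM1 and 116 and 88.6 CPM in IgG (0.42, adjusted p = 0.757).

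The structures under the microvilli and the route to the apical membrane had medians close to that of all genes. Of all tested genes, 19.7% were higher in both MAdCAM1 libraries and 18.7% lower in both. Of 13 terminal web genes, which encode the actin, myosin and spectrin mesh below the brush border, 2 were higher without overlap in MAdCAM1 (Sptbn1 and Myh14) and 2 lower, among them the tropomyosin gene Tpm4 (−0.21), with a median of 0.064. Myh14, a non-muscle myosin, stood at 228 and 216 CPM in MAdCAM1 and 205 and 136 CPM in IgG. Of 10 genes of apical vesicle traffic, 1 was higher in both and 2 lower in both, with a median of −0.094. The higher gene was Myo5b, whose loss causes microvillus inclusion disease in humans, at 105 and 92.3 CPM in MAdCAM1 and 85.5 and 62.5 CPM in IgG (0.41, adjusted p = 0.760). The lower genes were Vipas39 (−0.18) and Vps33b (−0.22), and Unc45a (−0.22) overlapped.

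Enzymes and other proteins of the brush border membrane had the highest median of the brush border lists. Of 20 listed genes 8 were tested, and 6 were higher without overlap in MAdCAM1 and 1 lower, at a median of 0.87 on the log2 scale. The shares over all tested genes were 19.7% higher and 18.7% lower. The peptidase Dpp4 stood at 30.5 and 17.2 CPM in MAdCAM1 and 8.54 and 11.6 CPM in IgG (1.24, edgeR adjusted p = 0.691). The meprin subunit Mep1b stood at 9.10 and 9.19 CPM in MAdCAM1 and 3.87 and 4.76 CPM in IgG (1.08, adjusted p = 0.691), and Mep1a rested on 94 and 30 tags in MAdCAM1 and 15 and 12 in IgG (2.40, adjusted p = 0.691). Tm4sf20, a membrane protein, stood at 305 and 228 CPM in MAdCAM1 and 179 and 191 CPM in IgG (0.53, adjusted p = 0.721). The tested gene on the other side was the aminopeptidase Anpep, at 2.87 and 6.15 CPM in MAdCAM1 and 7.06 and 6.25 CPM in IgG, named because it was the exception.

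Paralogs of the members, many of them used in other cell types, had a median of 0.18, with 3 of 17 higher without overlap in MAdCAM1 and 1 lower, against 19.7% and 18.7% of all tested genes. Besides Eps8l3, the myosin 7B relative Myo7a was higher in both, at 13.0 and 14.3 CPM in MAdCAM1 and 8.82 and 7.98 CPM in IgG (log2 fold change 0.70, edgeR adjusted p = 0.691). Pls3, the plastin of most solid tissues, was the lower gene, at 65.8 and 54.9 CPM in MAdCAM1 and 72.7 and 161 CPM in IgG (−0.95, adjusted p = 0.758). Avil, the villin relative that marks tuft cells, overlapped, at 33.4 and 12.8 CPM in MAdCAM1 and 31.4 and 75.2 CPM in IgG.

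The 16 tested transcription factors of intestinal epithelium or of actin genes had a median of 0.45 on the log2 scale. Of these, 9 were higher without overlap in MAdCAM1 and 0 lower. The shares over all tested genes were 19.7% higher and 18.7% lower. The factors of actin genes, Srf (−0.16), Mrtfa (−0.022) and Mrtfb (−0.13), overlapped between the groups. Cdx1 stood at 91.6 and 99.7 CPM in MAdCAM1 and 49.2 and 22.5 CPM in IgG (1.42, edgeR adjusted p = 0.691), and Cdx2, which sets intestinal identity, at 16.9 and 9.52 CPM in MAdCAM1 and 5.52 and 3.71 CPM in IgG (1.51, adjusted p = 0.691). Hnf4a stood at 236 and 254 CPM in MAdCAM1 and 175 and 110 CPM in IgG (0.78, adjusted p = 0.710), and Hnf4g at 13.4 and 14.2 CPM in MAdCAM1 and 8.14 and 6.99 CPM in IgG (0.87, adjusted p = 0.691). Of the tested genes in these brush border lists, 0 were called by the quasi-likelihood test, and Eps8l3 was the gene called by the exact test and by DESeq2.

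**Figure D4:**
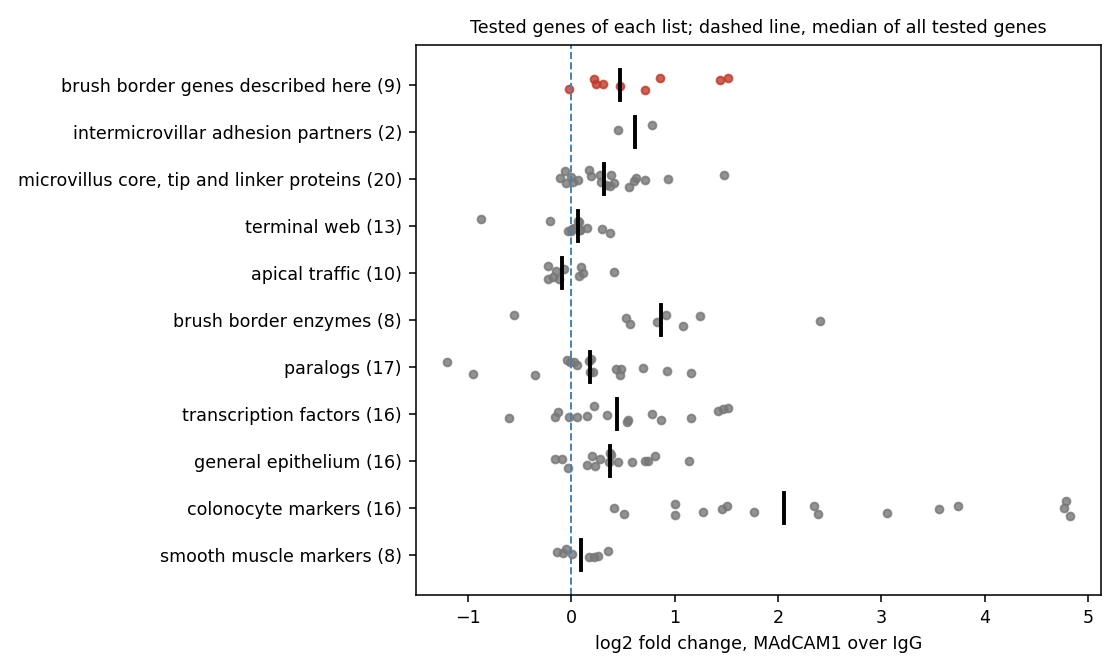
Log2 fold change, MAdCAM1 over IgG, of every tested gene (points, number tested in brackets) in the brush border set and 10 related or marker lists, with a black bar at each list's median and a dashed line at the median of all tested genes. The medians run from −0.094 for apical traffic to 2.06 for colonocyte markers, and the brush border set stands at 0.47.

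The mean profile of the 9 tested members over the 4 libraries, each gene centred on its mean log2 CPM, stood at 0.40 in MAdCAM1 1, 0.24 in MAdCAM1 2, −0.13 in IgG 1 and −0.52 in IgG 2. Among 10403 other genes of mean CPM at least 10, those with the smallest root mean square distance to it were Tmc6 (0.0341 log2 units), Slc37a1 (0.0351), the rootlet gene Misp (0.0352), Cnih4 (0.0387) and Slc46a1 (0.0393). Vil1 (0.0806) and Ush1c (0.0889) lay closest to the profile among the members, and Cdhr2 (0.433) and Cdhr5 (0.417) lay farthest. With 4 libraries this likeness is a description only.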

How the data were processed

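Colon tumours of 4 AOM/DSS mice, 2 per antibody, were read by CAGE with 1 library per mouse. Per the labels' protocols, capped 5′ ends were selected from total RNA by cap-trapping and tags were mapped to GRCm39 with BWA 0.7.17, then HISAT2 2.0.5. Tags were clustered with RECLU, weak, irreproducible and wide clusters were dropped, and edgeR 3.22.5 was named, per the same protocols. The step from clusters to genes is not given in the sources used here. The deposited values are raw counts of tags for each gene. Library totals were 14850923 and 15895228 tags in MAdCAM1 and 16891234 and 15727936 in IgG, so that 1 tag equals 0.0569 to 0.0700 CPM.

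Genes were filtered with filterByExpr (14331 of 14979 kept), scaled by TMM (factors 0.962 to 1.04) and tested for MAdCAM1 over IgG with edgeR 4.0.16 in R 4.3.3, using its robust quasi-likelihood test, without a block since equal numbers mark different mice. SEs are the log2 fold change over the square root of F. DESeq2 1.42.0, limma 3.58.1 (voom), other scalings and filters, left-out libraries and a replicate block were alternatives, and all gene tests were tested on a simulated data set with known changes. There each of the 4 tools made a larger share of false calls than its threshold of 0.05 allows, DESeq2 and the exact test the largest shares and voom the smallest. The members and lists were chosen with earlier results of these data known. Up to 4 genes per list with the smallest p are named, with paralogs of Eps8 and Ezr and the 5 genes of most similar profile. A terminal web gene is not reported here. Coordinates and promoters come from GENCODE M39 and the GRCm39 sequence, where all 10 members matched by gene ID. Vil1, Espn and Ezr overlap Usp37, Tnfrsf25 and Sytl3 on the opposite strand, and whether counting used strand is not given. None of the 9 tested members shares its values with another gene.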

Additional observations from a re-analysis of the deposited data

How the results depend on the processing

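The quasi-likelihood test called 0 genes, in the set and among all genes, under every alternative scaling, filter and block run and without each library. DESeq2 called 219 genes higher and 20 lower over all genes, 3 members and 1 other brush border gene higher, and the exact test 152 and 9 over all genes, 2 members and 1 other brush border gene. On simulated data both made more false calls than the quasi-likelihood test. Scaled to general epithelium, the median of the members was 0.087 and 1 member was lower in both MAdCAM1 libraries, against 52.5% of all tested genes. In that scaling Myo7b (−0.17), Eps8 (−0.082) and Ezr (−0.14) changed sign. Without IgG 2 Myo7b (−0.055), Espn (0.054) and Ezr (−0.079) did so, without MAdCAM1 1 Myo7b (−0.11) and Ezr (−0.022), and without MAdCAM1 2 Espn (0.15). Over the 4 left-out libraries Myo7b ran from −0.11 to 0.52, Espn from −0.22 to 0.15 and Ezr from −0.079 to 0.61. The cause was not tested. Leaving out each library gave a median of 0.31 to 0.64, 6 to 9 members higher without overlap and 0 to 1 lower, against 33.1% to 35.1% of all tested genes higher and 32.5% to 38.7% lower. Of 135 values of single members over 15 alternatives, 121 kept direction and call, 9 changed sign and 5 passed the threshold, the last all by DESeq2 or the exact test.

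Each mouse gave 1 library, so equal replicate numbers mark different mice. The correlation of same-numbered deviations was −0.15. With 2 libraries per group it is the same for both numbers by construction, so it cannot test a pairing. With the replicate block the median of the members was 0.48, with 0 members called and 0 genes called. A crossed pairing, chosen after seeing the data, also called 0 genes. Among the members, Myo1a had too few counted tags to be tested.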
